A study of Mus musculus with 2 samples.

Results

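Chemokines are small secreted proteins that steer migrating cells by binding receptors of the G protein-coupled class, and they set up gradients on heparan sulphate at cell surfaces. Homeostatic chemokines position cells during development and in resting tissue, whereas inflammatory ones are induced by injury or infection and draw in leukocytes. Atypical receptors bind the same ligands without signalling through G proteins and mostly remove them. In the gut, chemokines are known for placing lymphocytes in the mucosa, assembling lymphoid tissue and guiding macrophages, vessels and nerve precursors.

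The genes described here are the mouse chemokine ligands and receptors, taken by symbol: protein-coding genes named Ccl, Cxcl, Ccr or Cxcr with a number, together with Cx3cl1, Xcl1, Xcr1 and Ackr1 to Ackr4. A ligand and receptor pair outside this choice is not used here, and Cxcl11, annotated as a polymorphic pseudogene in GENCODE M21, was left out by the protein-coding rule. The choice gave 56 genes, 36 ligands and 20 receptors, of 21474 protein-coding genes with a symbol. The tissue was whole intestine, dissected at embryonic day 16.5 from healthy B6NCrl mice, with no treatment and no genetic change named. The series holds 1 group of 2 total RNA-seq libraries, each made from 10 ng of RNA longer than 200 nt with artificial ERCC spike-in transcripts added. Replicate 1 came from pooled embryos of unstated number and replicate 2 from 41 embryos, both pools mixing male and female. The labels give the pools their own biosample records and share a donor record between them. Because embryos were pooled, the spread between libraries is a spread between pools, part of which may be technical. With 1 group there is no contrast of conditions, and the smallest exact 2-sided sign-flip p that 2 libraries allow is 0.5, so the results below are levels and differences without tests.

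The libraries held 42040766 and 41480301 expected counts, and protein-coding genes took 94.3% and 94.5% of them. Epithelial markers were detected in 8 of 8 cases, mesenchymal markers in 5 of 5 and smooth muscle markers in 4 of 4, as the tissue label has it. Among immune cells, macrophage markers were detected in 6 of 6 cases (summed TPM 160 and 167), whereas dendritic cell markers were in 1 of 5 (6.73 and 6.49), T, NK and innate lymphoid markers in 1 of 7 (13.7 and 15.6) and B cell markers in 0 of 4 (0.55 and 0.50), with Pax5 at 0 counts in both libraries. Pancreatic marker genes reached 4288 and 5557 summed TPM and liver markers 472 and 313, and whether these transcripts came from the intestine or from neighbouring organs was not tested.

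Levels are given in TPM, a measure of abundance that allows for transcript length. Detection required a TPM of 1 or more in each library. By this rule 24 of the 56 genes (42.9%) were detected, against 62.0% of all protein-coding genes. The median chemokine gene stood at 0.565 and 0.885 TPM in replicates 1 and 2, and the median protein-coding gene at 4.46 and 4.44. Detected genes numbered 17 of 36 ligands and 7 of 20 receptors. Together the 56 genes made 578 and 614 TPM, 0.0578% and 0.0614% of all transcripts. Ligands held 94.7% ± 0.075 (SD, n = 2) of this sum, 17.9 ± 0.27 times the receptors, and 9.24 ± 0.144 times in counts scaled to library size without length. The 5 highest genes, Ccl25, Cxcl12, Ccl11, Ccl21a and Ccl9, held 70.4% of it on average (71.5% and 69.4%), and the 10 highest 89.3% ± 0.233. Of the 23 neighbours in the order of detected genes, 13 had values that did not overlap, and 10 could not be ordered beyond the spread of the libraries. In RNA of a whole organ, fewer cells of a type and less RNA per cell cannot be told apart.

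Chemokine ligands are classed by the spacing of their first cysteines, and the sequences that set the class are shown for the highest CC ligands, the highest CXC ligand and the only CX3C ligand, in lower case with the cysteine codons (TGC here) in capitals. All lie within 1 coding exon of GRCm38 (mm10), on the plus strand: Ccl25 at chr8:4353885-4353914, Ccl11 at chr11:82061684-82061713, Cxcl12 at chr6:117171496-117171528 and Cx3cl1 at chr8:94778039-94778077.
Ccl25: gcctttgaagacTGCTGCctgggttaccag
Ccl11: atcccaacttccTGCTGCtttatcatgacc
Cxcl12: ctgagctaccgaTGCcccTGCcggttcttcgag
Cx3cl1: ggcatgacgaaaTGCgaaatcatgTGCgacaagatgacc
The capitals touch in Ccl25 and Ccl11, stand 1 codon apart in Cxcl12 and 3 codons apart in Cx3cl1. Searching codons 21 to 60 of each gene's most abundant coding transcript for the first such spacing, adjacent cysteines came first in 22 of 23 Ccl genes and the 1-codon spacing in 11 of 11 Cxcl genes. The same first patterns were found in 2.56% and 2.07% of 21078 protein-coding genes searched in the same way. The exception was Ccl27a, whose most abundant coding transcript, Ccl27a-206, has its first adjacent pair at codon 78 of 164.

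**Figure D1:**
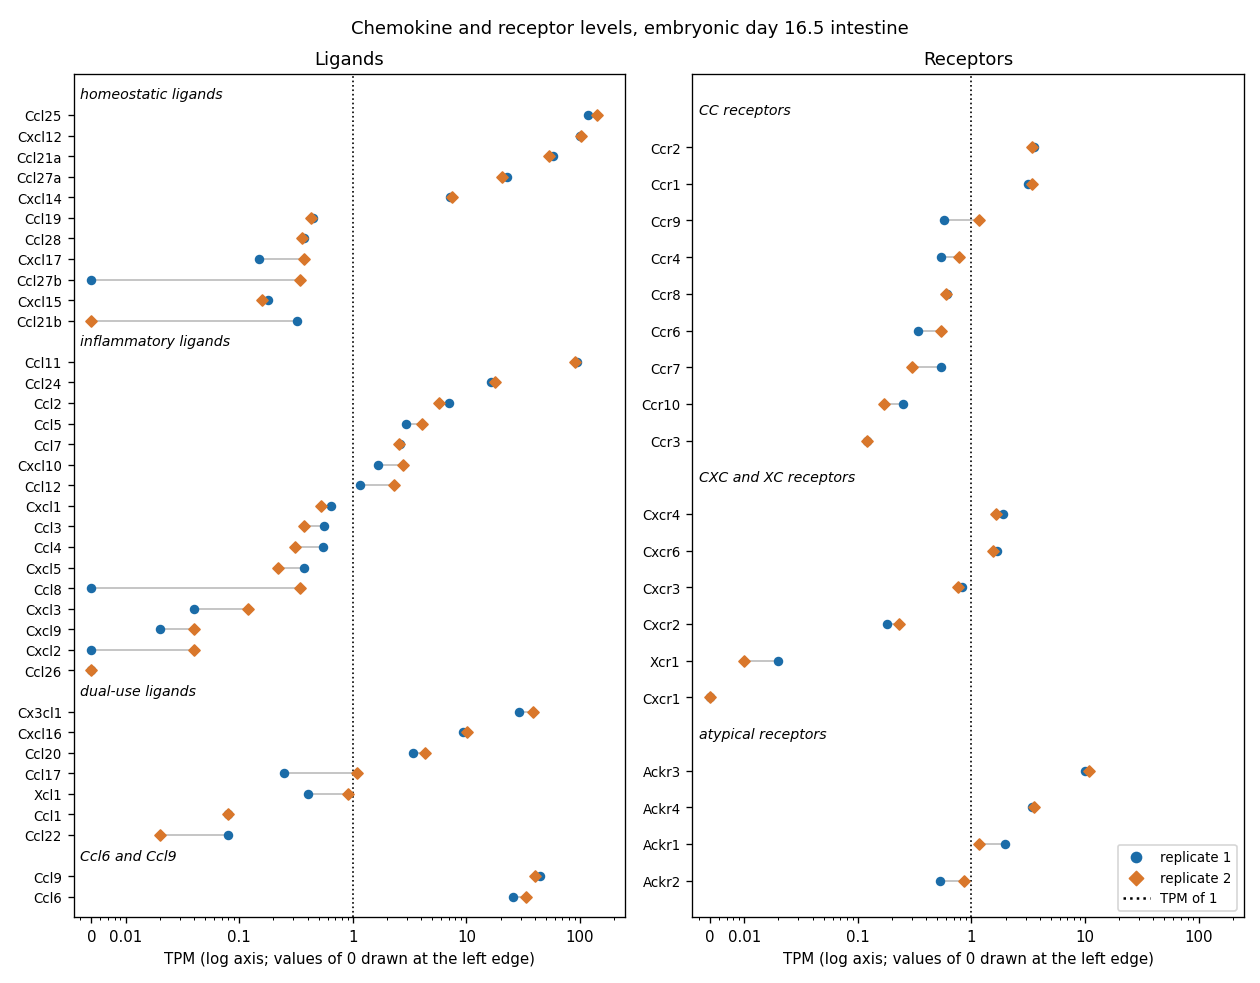
TPM of chemokine ligands and receptors in replicate 1 (circles) and replicate 2 (diamonds), grouped by role and sorted by mean level, on a log axis with values of 0 drawn at the left edge and a dotted line at a TPM of 1. Ccl25, Cxcl12 and Ccl11 stand near 100 in both libraries, and Ackr3 is the only receptor above 10.

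The homeostatic ligands, which act in resting and developing tissue, were detected in 5 of 11 cases and held 53.1% ± 0.026 of the chemokine and receptor TPM. Ccl25 (ENSMUSG00000023235.9; chromosome 8, 4325210 to 4360020), the ligand of Ccr9 known for drawing lymphocytes to the small intestine and thymus, was the highest of all at 117.87 TPM in replicate 1 and 140.08 in replicate 2. Only 1286 protein-coding genes had a higher mean. Cxcl12 (ENSMUSG00000061353.7; chromosome 6, 117168535 to 117181367), a ligand of Cxcr4 and Ackr3 that is made by stromal cells and is needed for embryonic vessels and blood formation, followed at 99.50 and 102.47 TPM. Ccl21a (ENSMUSG00000094686.1; chromosome 4, 42772860 to 42773993), which brings Ccr7-bearing cells to lymphatic vessels and lymph nodes, stood at 58.19 and 53.88. Both libraries gave these 3 genes in the same order, with no overlap between their values. The first 204 bases of the Ccl25 locus overlap Elavl1 on the opposite strand (51.3 and 47.9 TPM).

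Ccl27a, a ligand of Ccr10 known chiefly from skin, stood at 22.82 and 20.79 TPM. Cxcl14, a conserved chemokine of epithelia and stroma, stood at 7.12 and 7.43. The other 6 homeostatic ligands, Ccl19, Ccl28, Cxcl17, Cxcl15, Ccl21b and Ccl27b, had means from 0.160 to 0.440 TPM. Ccl19, the other classical ligand of Ccr7, was at 0.45 and 0.43. Ccl28, a ligand of Ccr10 typical of adult colon and glands, was at 0.37 and 0.36.

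Genes of the Ccl21, Ccl27 and Ccl19 groups share stretches of sequence with copies annotated as other genes, so reads may be divided between them. In Ccl21a, 71.6% of the 50-base windows of the transcript also occurred in other genes, and in Ccl21b 100%. Summed over Ccl21a and the 4 genes that share its windows, the level was 78.2 and 76.8 TPM, a sum that lies below Ccl11 and above Ccl9, as Ccl21a alone did. In Ccl27a 59.9% of windows were shared, and the summed level of its 6 genes was 24.5 and 22.5. In Ccl19 68.2% of windows were shared, and with the 4 genes that hold them its sum was 0.45 and 1.73 TPM on 8 and 27 counts, so its low level is uncertain, above all in replicate 2. By contrast, 38 of the 56 genes shared no window with any other gene, Ccl25, Cxcl12 and Ccl11 among them.

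The 3 annotated coding forms of Cxcl12 differ at the end of the protein, and their last codons are shown because the files resolve them. The 89 codons that all have in common end in the same 18 bases, given in lower case, and the added codons of the longer forms are in capitals. The parts shown begin at chromosome 6, position 117173562, and end at 117173579 in Cxcl12-202, 117178595 in Cxcl12-203 and 117176176 in Cxcl12-201, across an intron in the longer forms.
Cxcl12-202: gagaaagctttaaacaag
Cxcl12-203: gagaaagctttaaacaagAGGCTCAAGATG
Cxcl12-201: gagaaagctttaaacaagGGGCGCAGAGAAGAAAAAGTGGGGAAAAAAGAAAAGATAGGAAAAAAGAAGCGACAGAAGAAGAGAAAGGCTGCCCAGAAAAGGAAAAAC
The shortest form, Cxcl12-202, took 82.63% and 83.08% of the gene's TPM. Cxcl12-203, with 4 further codons, took 12.29% and 12.18%. Cxcl12-201, with 30 further codons, took 2.00% and 1.90%. The order of the forms was the same in both libraries, and the forms were 82.9% ± 0.32, 12.2% ± 0.078 and 1.95% ± 0.071 (SD, n = 2). A transcript with a retained intron, Cxcl12-204, held the remaining 3.08% and 2.84%.

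Among ligands classed as inflammatory, 7 of 16 were detected. Ccl11 (ENSMUSG00000020676.2; chromosome 11, 82057823 to 82062955), or eotaxin, which attracts eosinophils through Ccr3, ranked 3 among the 56 genes at 93.53 and 89.66 TPM. Ccl24, a second eotaxin, stood at 16.51 and 17.71. Both values of Ccl11 lay above both values of Ccl24, and the other 14 ligands of the class were lower than either. Ccl2, Ccl7 and Ccl12 are monocyte attractants that signal through Ccr2. Ccl2 stood at 7.09 and 5.71 TPM. Ccl7 stood at 2.61 and 2.54, and Ccl12 at 1.16 and 2.32 from only 15 and 29 counts. Ccl5, made by lymphocytes among others, stood at 2.96 and 4.09. Cxcl10, an interferon-induced ligand of Cxcr3, stood at 1.67 and 2.78 from 49 and 79 counts. It lies within the gene Art3 on the opposite strand (4.76 and 3.79 TPM), and the sources used here do not say whether strand was kept, so reads of Art3 could be counted with it. Cxcl9, induced by interferon-gamma, had 2 and 3 counts.

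CXC ligands with the residues ELR before the first cysteine are the neutrophil attractants that act through Cxcr2. Of 11 Cxcl genes 5 have this motif, Cxcl1, Cxcl2, Cxcl3, Cxcl5 and Cxcl15, and 0 of the 5 were detected, with a summed TPM of 1.23 and 1.07. The highest of them, Cxcl1, was at 0.64 and 0.53. Of the 6 Cxcl genes without the motif, 4 were detected. Chemokines outside the naming rule were not searched for the motif. Among them, the platelet chemokine Ppbp was detected at 2.11 and 1.11 TPM and Pf4 at 38.9 and 40.3. Cxcr2, the receptor of the ligands with the motif, was at 0.18 and 0.23 TPM. Cxcr1 had 0 counts in both libraries, which allows up to 0.0858 and 0.0883 TPM if 3 counts could have been missed. Granulocyte and mast cell markers, S100a8 and S100a9 highest, were detected in 4 of 6 cases, with a summed TPM of 70.5 and 32.04.

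Ligands with both homeostatic and inflammatory use were detected in 3 of 7 cases. Cx3cl1 (ENSMUSG00000031778.8; chromosome 8, 94772009 to 94782427), or fractalkine, a membrane-anchored ligand that holds Cx3cr1-bearing macrophages, stood at 28.93 and 38.88 TPM. Cxcl16, the other membrane-anchored chemokine, stood at 9.32 and 10.20. Ccl20, the ligand of Ccr6 made by epithelium over lymphoid tissue, stood at 3.42 and 4.35. Ccl17, Xcl1, Ccl1 and Ccl22 were not detected, and Ccl17 went from 0.25 to 1.10 TPM on 3 and 13 counts.

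Ccl9 and Ccl6 are CC chemokines of rodents made largely by myeloid cells and bound by Ccr1, and both were among the 10 highest genes. Ccl9 (ENSMUSG00000019122.8; chromosome 11, 83572919 to 83578636) stood at 44.40 and 40.10 TPM and Ccl6 at 25.86 and 33.43. Much of both levels rested on transcripts that are not annotated as coding. Ccl9-202, a processed transcript of 398 bases, took 59.87% and 57.11% of Ccl9 TPM but 13.3% and 12.0% of its counts, since TPM weighs short transcripts more. Counting coding transcripts alone, Ccl9 stood at 17.5 ± 0.438 and Ccl6 at 15.6 ± 4.50, both still among the 10 highest genes.

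The same applied to a few other genes. Of the 24 detected genes, 17 have more than 1 transcript in the tables, 13 of these have one that is not annotated as coding, and 5 (Ccl9, Cxcl16, Ccl6, Ccl27a and Ackr4) had over 10% of TPM on such transcripts in both libraries. For Cxcl16 the share was 53.2% ± 1.26, carried mostly by Cxcl16-202, which is annotated as subject to nonsense-mediated decay. For Ccl27a it was 34.8% ± 2.14, spread over many retained introns. Coding transcripts alone gave Cxcl16 4.57 ± 0.417 TPM and Ccl27a 14.2 ± 1.39.

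**Figure D2:**
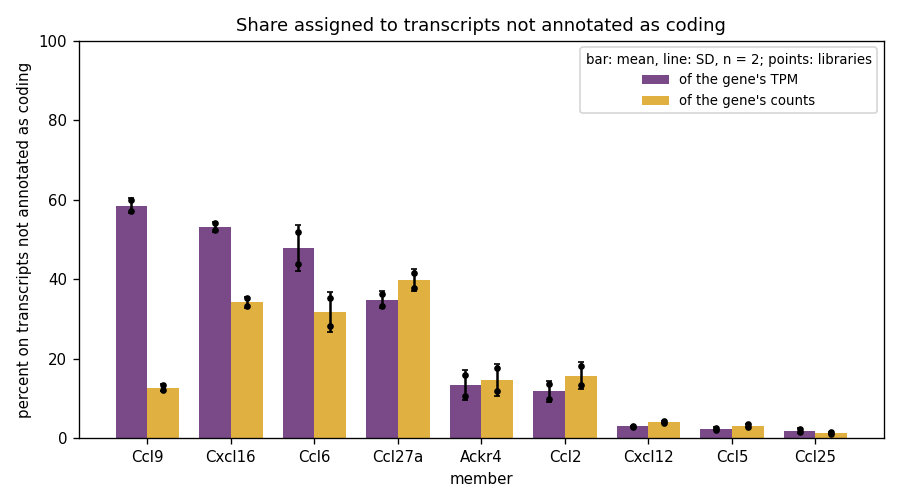
Percent of each gene's TPM (dark bars) and of its counts (light bars) on transcripts not annotated as protein-coding, for detected genes with a mean over 1% of TPM, as mean and SD of 2 libraries with the libraries as points. The gap between bars is widest in Ccl9, at 58.5% of TPM against 12.7% of counts.

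The most abundant transcript of a gene was compared between libraries for the 9 genes with more than 1 transcript and a mean TPM of at least 5. It was the same in 8 of 9, beside 93.8% of 7786 protein-coding genes chosen in the same way. The exception was Ccl6, led in replicate 1 by Ccl6-202, a retained-intron transcript with 51.94%, and in replicate 2 by the coding Ccl6-201 with 56.23%. Ccl25-201 held 94.51% and 95.02% of Ccl25, and Cx3cl1-201 held 100% and 99.30% of Cx3cl1.

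Receptors were detected in 7 of 20 cases (35%), against 47.2% of ligands. The median receptor stood at 0.565 and 0.82 TPM, near the median ligand at 0.60 and 1.005. The larger sum of the ligands thus rested on the highest of them. Of the conventional receptors, which signal through G proteins, 4 of 16 were detected: 2 of 10 CC receptors and 2 of 6 CXC or XC receptors. Ccr2 (ENSMUSG00000049103.9; chromosome 9, 124101950 to 124113557), the receptor of inflammatory monocytes for Ccl2, stood at 3.59 and 3.41 TPM. Ccr1, a receptor of myeloid cells, stood at 3.14 and 3.40. The values of these receptors lay side by side, 0.01 TPM apart at the nearest, and their deposited intervals overlapped. Cxcr4, the signalling receptor of Cxcl12, stood at 1.91 and 1.64, and Cxcr6, the receptor of Cxcl16, at 1.69 and 1.56. Cxcr6 lies within Fyco1 on the opposite strand (9.90 and 7.25 TPM), and how many of its reads come from there was not tested.

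Atypical receptors were detected in 3 of 4 cases and held 2.72% ± 0.062 of the chemokine and receptor TPM, against 2.57% ± 0.013 for all 16 conventional receptors. The shares were 2.81% ± 0.062 and 2.77% ± 0.028 with the deposited posterior means of TPM, a difference within the spread. In counts scaled to library size without length they were 5.19% ± 0.058 and 4.58% ± 0.079. Ackr3 (ENSMUSG00000044337.5; chromosome 1, 90203980 to 90216751), which binds and clears Cxcl12, led the receptors at 10.05 and 10.87 TPM and ranked 10 among the 56 genes. Ackr4, which clears Ccl19, Ccl21 and Ccl25, stood at 3.45 and 3.57 and lies within Acad11 on the opposite strand (37.62 and 46.57 TPM). Ackr1, a chemokine-binding protein of erythroid cells and venules, stood at 1.97 and 1.16 on 61 and 35 counts, and shares 493 bases of its locus with Cadm3 on the same strand (1.53 and 1.67 TPM). Ackr2, which clears inflammatory CC ligands, was just under detection at 0.53 and 0.86.

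Signalling receptors typically carry the amino acids DRYLAIV at the inner end of the third membrane helix, where G proteins engage. The codons are shown for some of the detected receptors, Ccr2, Cxcr4 and Ackr3, and for Ackr2. Capitals mark codons that encode the residue of that motif. All lie in 1 coding exon of GRCm38 (mm10): Ccr2 at chr9:124106132-124106152, Cxcr4 at chr1:128589500-128589520 on the minus strand, Ackr3 at chr1:90214241-90214261 and Ackr2 at chr9:121908978-121908998.
Ccr2: GATAGGTACTTGGCTATTGTT
Cxcr4: GACCGGTACCTCGCTATTGTC
Ackr3: GACCGCTATCTCtccATCacc
Ackr2: GACaaaTACCTGgagATTGTC
Ccr2 and Cxcr4 keep all 7 residues, and Ackr3 and Ackr2 each differ at 2. Of the detected receptors not shown, Ccr1 has the exact motif. Cxcr6, Ackr1 and Ackr4 lack the exact motif. The search for near matches took only stretches that begin with DRYL or DKYL, and it found none in them. Similar stretches with another beginning were not looked for, so their absence is not shown. The exact motif was found in 9 of 16 conventional receptors, in 0 of 4 atypical receptors and in 0.0854% of the 21078 protein-coding genes searched. A match is a description of the letters and was not tested against any readout.

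The remaining 13 receptors were below detection. Ccr9, the receptor of Ccl25, had the highest mean of these at 0.57 and 1.17 TPM on 59 and 101 counts. It lies among the genes Lztfl1 (30.8 and 28.3 TPM) and Slc6a20a (27.8 and 34.1 TPM) on the opposite strand. Cxcr3 stood at 0.83 and 0.77. Of all 32 undetected genes, 27 had at least 3 counts in a library, with means from 0.015 TPM (Xcr1) to 0.870 (Ccr9). The other 5 had fewer than 3 counts in both libraries: Ccl1 (1 and 1), Cxcl2 (0 and 1), Ccl21b (2.83 and 0), and Ccl26 and Cxcr1 with 0 in both. For Ccl26, a short transcript, 0 counts allow up to 0.557 and 0.574 TPM. Floors and intervals of counts cover counting error only.

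**Figure D3:**
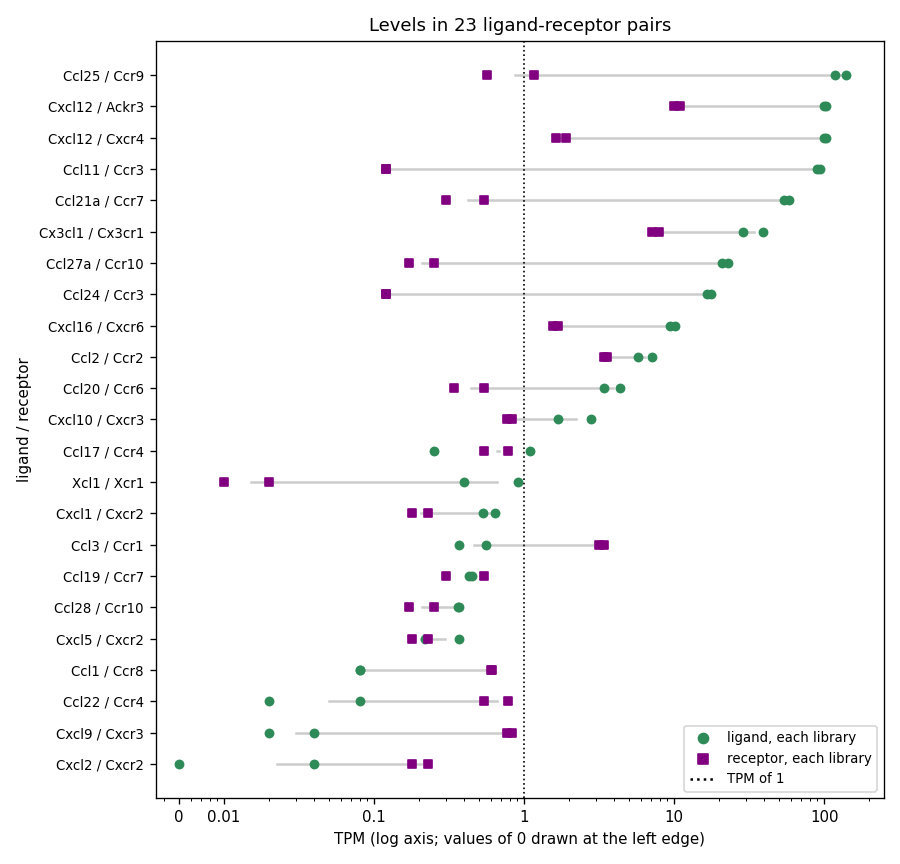
TPM of the ligand (circles) and the receptor (squares) in each library for 23 ligand-receptor pairs, sorted by ligand level, on a log axis with 0 drawn at the left edge and a dotted line at a TPM of 1. Grey lines join the mean levels. Pairs at the top have a ligand far to the right of its receptor, most of all Ccl11 and Ccr3.

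Ligands and their receptors were compared within 23 listed pairs. Both were detected in 5 pairs, only the ligand in 7, only the receptor in 1 and neither in 10. In all 5 listed pairs with both detected the ligand was higher. A pair was called apart where the log2 ratio of TPM had 1 sign in both libraries and a mean beyond 3 SD, which held for all 5. The list does not hold every match named above, and unlisted ones went both ways. Ccl7 (2.61 and 2.54 TPM) and Ccl12 (1.16 and 2.32) stood below Ccr2 (3.59 and 3.41), whereas Ccl9 and Ccl6 stood above Ccr1. Cxcl12 exceeded Cxcr4 by a log2 ratio of 5.83 ± 0.19 (SD, n = 2), 57.1-fold, and Ackr3 by 3.27 ± 0.05, 9.66-fold. Between its receptors, Cxcr4 over Ackr3 had a log2 ratio of −2.56 ± 0.24, and −3.34 ± 0.24 in counts scaled to library size without length. Cxcl16 exceeded Cxcr6 by 2.59 ± 0.17, but by 1.49 ± 0.21 with coding transcripts alone, and Cx3cl1 exceeded Cx3cr1 by 2.16 ± 0.41.

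The smallest difference was that of Ccl2 over Ccr2, at a log2 ratio of 0.86 ± 0.17, and it turned over to −1.28 ± 0.23 in counts scaled to library size without length, Ccr2 having the longer transcript. In the 7 pairs with only the ligand detected, the ligands were Ccl25, Ccl11, Ccl21a, Ccl27a, Ccl24, Ccl20 and Cxcl10. The clearest was Ccl11, near 90 TPM, beside its receptor Ccr3 at 0.12 in both libraries. Ccr7, the receptor of Ccl21a, stood at 0.54 and 0.30 TPM, Ccr10 at 0.25 and 0.17, and Ccr6 at 0.34 and 0.54. Ccr1 alone was detected without the ligand paired with it here, Ccl3, which was at 0.56 and 0.37. Other ligands of Ccr1 that are not in the listed pairs were detected, Ccl9 at 44.40 and 40.10 TPM and Ccl6 at 25.86 and 33.43.

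**Figure D4:**
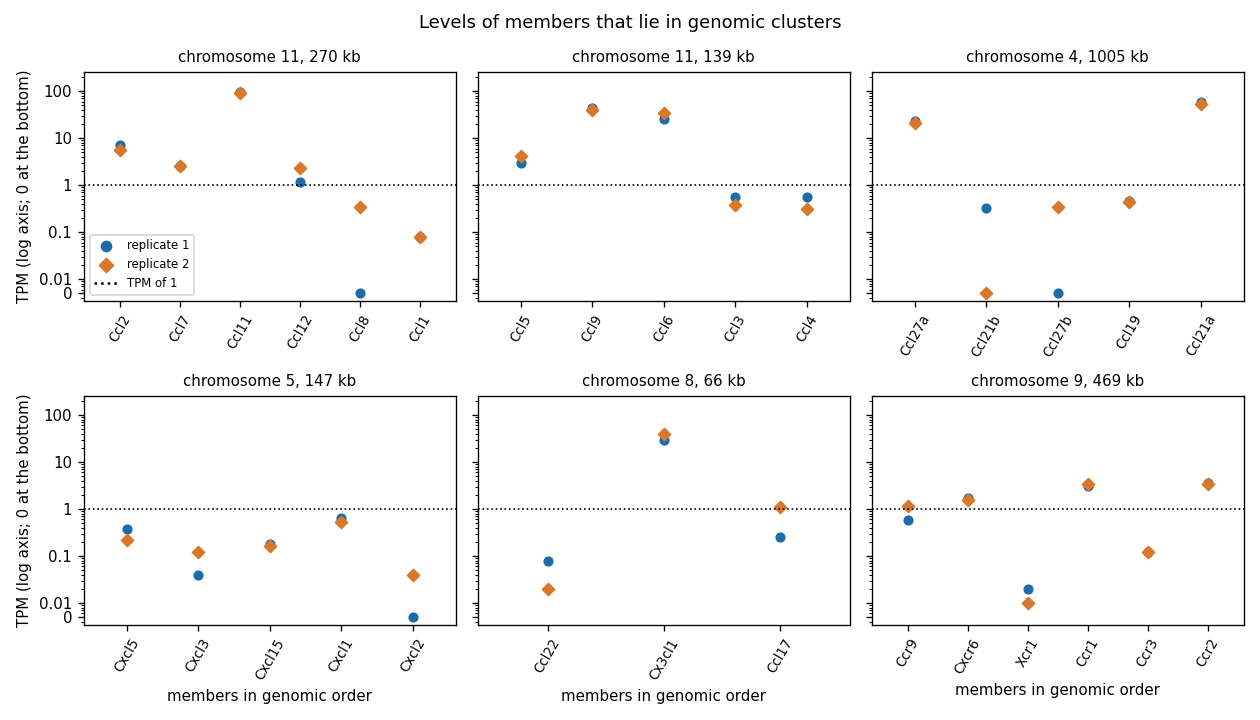
TPM in both libraries of genes in the 6 genomic clusters with at least 3 members, in their order along the chromosome, on a log axis with 0 at the bottom and a dotted line at a TPM of 1. High and undetected genes sit side by side, and the 5 genes of the chromosome 5 cluster are all below the line.

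Chemokine genes arose by repeated duplication and lie in clusters, and 37 of the 56 fell into 9 groups with gaps of at most 500 kb. Levels within a cluster were uneven. In the cluster on chromosome 11 from 82035571 to 82305690 (mm10), 4 of 6 genes were detected, and Ccl11 stood 14.3-fold above the next, Ccl2, whereas Ccl8 and Ccl1 were not detected. In the neighbouring cluster from 83525778 to 83664683, Ccl9, Ccl6 and Ccl5 were detected, and Ccl3 and Ccl4 were not. On chromosome 8, from 94745590 to 94812036, Cx3cl1 stood at a mean of 33.9 TPM between Ccl22 at 0.050 and Ccl17 at 0.675. In the cluster on chromosome 5 from 90759360 to 90905938, the members among the 56 genes are the 5 ELR ligands, 0 of 5 detected. Clusters were built from the 56 genes alone. Chemokines outside the naming rule, such as the detected Pf4 and Ppbp, were not placed in them, so a cluster may hold further chemokine genes. The receptor cluster on chromosome 9 from 123678439 to 124147699 had 3 of 7 detected, Cxcr6, Ccr1 and Ccr2, beside Xcr1 at 0.015.

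The pools were compared gene by gene for the 16 chemokine genes with a mean count of at least 100, as a log2 ratio of TPM less the median of expressed protein-coding genes. A gene was called different at 2-fold or more with the deposited TPM intervals of the libraries apart. By this rule 0 of 16 were called, against 0.838% of 12885 protein-coding genes with as many counts. With 1 library a pool there is no test, and no p-value exists to set beside the 0. Replicate 2 was higher in 10 genes and lower in 6, 14 of 16 lay within 1.25-fold, and the median absolute log2 ratio was 0.12 beside 0.11 for all protein-coding genes at this minimum. Without the fold limit, the intervals of 3 genes lay apart (Cx3cl1, Ccl6 and Ccl25), where 26.3% of protein-coding genes had intervals apart.

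Cx3cl1 had the largest ratio, 1.36-fold higher in replicate 2 after centring, with intervals of 27.6 to 30.02 and 37.2 to 40.1 TPM. Ccl6 was 1.31-fold higher, and Ccl25 was 1.20-fold higher. Over the same pools the ratio of summed marker TPM, replicate 2 over replicate 1, was 1.04 for macrophages, 1.04 for epithelium, 1.30 for pancreas, 0.664 for liver and 0.454 for granulocytes and mast cells. Within the granulocyte and mast cell list, S100a8 (34.34 and 16.37 TPM), S100a9 (23.16 and 8.64), Elane and Mpo were lower in replicate 2. Cpa3 was at 5.11 and 4.41 and Mcpt8 at 0.54 and 0.69. Of the liver markers, Ttr stood at 89.43 and 88.04, and Afp, Alb, Apoh and Itih2 were lower in replicate 2. The part of these marker ratios in the chemokine ratios was not tested. Ccl2 had the largest ratio in the other direction, at 0.816-fold with overlapping intervals.

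**Figure D5:**
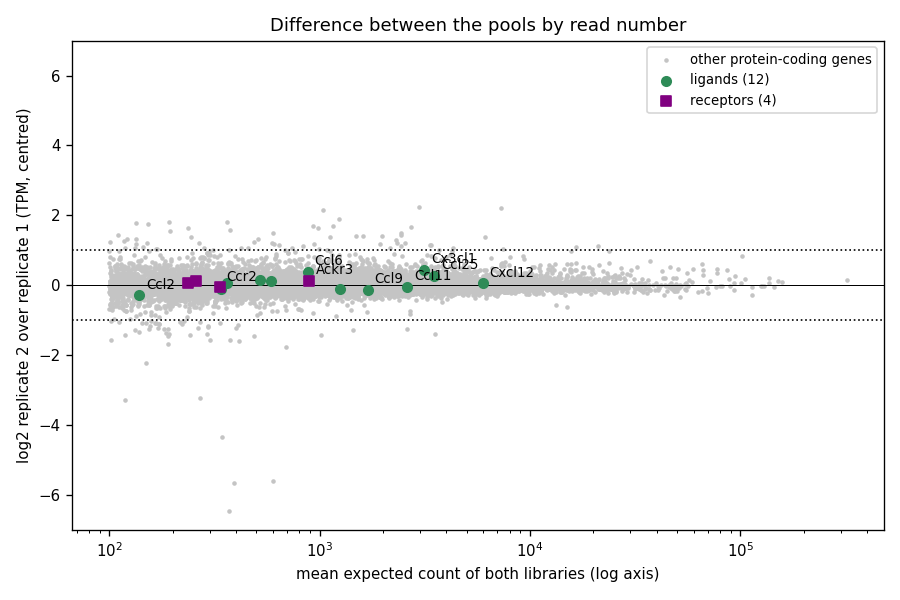
Log2 ratio of TPM, replicate 2 over replicate 1, centred on expressed protein-coding genes, against the mean expected count (log axis), for protein-coding genes with a mean count of at least 100. Ligands (circles) and receptors (squares) all lie between the dotted lines at 2-fold, from 0.816-fold for Ccl2 to 1.36-fold for Cx3cl1.

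Genes of the wider pathway were taken from lists by role. Of 10 relatives outside the naming rule, 9 were detected. The macrophage migration inhibitory factor Mif, a non-classical ligand of Cxcr4, stood at 1854 and 1667 TPM, with counts that were not whole and so included reads shared with other genes. Rarres2, the precursor of the attractant chemerin, stood at 81.0 and 85.9, and the platelet chemokine Pf4 at 38.9 and 40.3. Ppbp, another platelet chemokine, stood at 2.11 and 1.11. Cx3cr1, the receptor of Cx3cl1 on macrophages, stood at 7.93 and 7.11, higher than every conventional receptor among the 56 genes. The lowest relative, Ccr1l1, had 0 counts in both libraries.

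Genes that carry the signal onward were detected in 20 of 24 cases, with a median of 7.26 ± 0.84 TPM. The G protein subunits Gnb1 (256 and 321 TPM) and Gnai2 (257 and 265) and the phospholipase Plcb3 (151 and 174) were highest, and the leukocyte regulator Pik3r5 was lowest at 0.46 and 0.56. Genes that trim chemokines or build the surface sugars that hold them were detected in 13 of 13 cases, with a median of 42.5 ± 2.78. The proteoglycan core Sdc4 (118 and 111), the protease Mmp2 (96.1 and 96.5) and the proteoglycan core Sdc1 (93.3 and 87.0) led, and the heparan sulphate enzyme Hs2st1 was lowest at 5.94 and 6.

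Inducers of chemokine genes and their receptors were detected in 11 of 18 cases, with a median of 6.17 ± 0.39 TPM. The receptors Ifngr1 (98.8 and 92.3), Ltbr (90.4 and 91.2), which starts lymphoid organ formation, and Tnfrsf1a (77.0 and 81.2) were highest. Among the cytokines, Ltb was detected at 3.79 and 3.99 TPM and Lta was at 1.06 and 0.85. Tnf was at 0.20 and 0.16 TPM, Il1b at 0.22 and 0.28, Il6 at 0.14 and 0.11 and Ifng at 0 and 0.03. Il17a and Il22 had 0 counts in both libraries. The cytokines were picked for mention after their values were seen, except Il17a and Il22, the lowest of the list.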

How the data were processed

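Total RNA-seq of 2 libraries from whole embryonic intestine was used. Per the deposited text beside the tables, the authors assigned reads to GENCODE M4 transcripts on mm10, and the sources used here name no aligner or quantifier. Deposited expected counts estimate the reads of each gene, without normalisation, and are not always whole. The deposited TPM values, and their posterior means, correct for length and include spike-ins. The deposited FPKM values were not analysed. The deposited percent columns divide a gene's TPM among its forms. The bounds of the deposited TPM intervals were treated as a score, since their level is not stated.

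Symbols, coordinates and transcript types came from GENCODE M21 (GRCm38, the build mm10), which matched 42462 genes, 21474 of them protein-coding. Coding parts were read from M21 transcripts. Levels are means ± SD of 2 libraries. The pool ratio used a pseudocount of 0.1, and pathway and marker lists were described by detected members. All genes detected were named, as were the 3 highest undetected, those under 3 counts, the 3 highest and the lowest of each pathway list, Cx3cr1, Pf4 and Ppbp, with exceptions stated. 1 receptor is not reported here except within totals, and no pair that holds it was compared. The genes and lists were chosen with earlier results of these data known. The searches for motifs, shared windows, overlapping genes and clusters, and the count over coding transcripts, were chosen after seeing the data and each run with 1 setting. Of the procedures, only the pool comparison was tested on simulated data, with intervals made from the simulated counts. Alternatives were other TPM and count minimums, posterior means, rescaling to protein-coding genes, counts without length, other pseudocounts and folds, TMM factors (edgeR 4.0.16), DESeq2 1.42.0 size factors (on rounded expected counts), and each library left out. R 4.3.3, Python 3.11.15, numpy 2.4.6 and pandas 2.3.3 were used. Depth was 42040766 and 41480301 expected counts, and genes with few counts vary more between libraries. The labels name no molecular identifiers, so reads are not taken as independent molecules.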

Additional observations from a re-analysis of the deposited data

How the results depend on the processing

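The number of detected genes was 24, and 31 at a TPM minimum of 0.5, 19 at 2, 25 with posterior means, 24 rescaled to protein-coding genes, 24 with coding transcripts alone (chosen after seeing the data) and 24 to 27 with a library left out. It rose to 37 with a minimum of 10 expected counts in both libraries, which does not weigh length, where 71.1% of protein-coding genes passed. Genes added without replicate 1 included Ccl17 and Ccr9. The 10 highest genes were the same 10 with posterior means, coding transcripts alone or either library. The ligand share of 94.7% became 94.4% with posterior means, 90.2% in counts scaled to library size without length and 94.2% with coding transcripts alone, and lay between 94.7% and 94.8% in single libraries. Pairs called apart numbered 7, the 5 ligand-receptor pairs with Cxcr4 over Ackr3 and Cxcl12 over Cxcl14. All held at 5 SD, with posterior means and with coding transcripts, where Cxcl16 over Cxcr6 fell to 1.49. They also held at 2 SD, which is looser than 3 SD and could not remove a call. In counts without length Ccl2 over Ccr2 reversed to a log2 ratio of −1.28, Ccr2 having the longer transcript. Between pools, 0 genes were called under all 7 alternatives, where 0.582% to 2.37% of protein-coding genes were. At a mean TPM of at least 1, 15 of 17 genes had the same major transcript, beside 92.0% of protein-coding genes, more genes being eligible. Genes near a TPM of 1 rest on few counts, such as 15 and 29 for Ccl12, and depth limits their order. No paired analysis was possible because the series compares no groups.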
